A study of Mus musculus with 12 samples.

Results

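The Zbtb, Klf and Zc3h genes encode zinc finger regulators, and meiotic recombination starts in and around them were compared between Ankrd31 knockout and wild type mouse testis. Members were all protein-coding RefSeq genes of GRCm38 whose symbol starts with Zbtb, Klf or Zc3h followed by a digit, or by a letter and a digit. The rule found 75 of 21631 protein-coding genes, 41 of them Zbtb, 17 Klf and 17 Zc3h, with 72 on autosomes and 3 on the X chromosome. The tissue was whole testis of adult males, taken from Ankrd31 knockout mice (strain given as Ankrd31 tm1Atot, 2 DMC1 samples) and from wild type mice (C57BL/6JCrl, 2 DMC1 samples). The sources used here do not name the genetic background of the knockout, so strain differences and loss of Ankrd31 cannot be told apart. The other 8 samples of the series, H3K4me3 chromatin immunoprecipitation and input DNA at 13 days, were not analysed here.

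DMC1 is the recombinase that loads onto the single-stranded DNA at meiotic double-strand breaks. DMC1 single-stranded DNA sequencing (SSDS) recovers that DNA, and each enriched interval is called a hotspot. In mice the histone methyltransferase PRDM9 directs most breaks to its own DNA motif, and breaks move to promoters when PRDM9 is missing. ANKRD31 is a partner of the break-forming machinery and is needed for breaks in the region where X and Y pair.

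Zbtb proteins join a BTB domain, through which they pair and bind corepressors, to DNA-binding C2H2 zinc fingers. Zbtb16 (PLZF) is known for maintaining spermatogonial stem cells. Klf proteins carry C2H2 fingers at their C terminus that bind CACCC and GC-rich boxes. Zc3h proteins carry CCCH fingers, most of which bind RNA, so this family acts largely on mRNA processing and decay rather than on DNA. Some members fit their name poorly. Zbtb8os encodes archease, a tRNA ligase cofactor, and Zc3hc1 has a C3HC finger. Expression is not measured by this assay.

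Each genotype had 1 deposited hotspot list, with 22034 hotspots and 4203380 reads in the knockout and 13480 hotspots and 4376692 reads in the wild type. The value of a hotspot is its strength, the reads minus an estimated background. The lowest strength listed was 16 in the knockout and 18 in the wild type, and the medians were 105 and 152. A hotspot was called shared when it overlapped one of the other list by at least 1 bp, and knockout-only or wild-type-only when it did not. With 1 list for each genotype there is no replicate check, and intervals given here are exact 95% intervals that cover counting error only.

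Ends of members carried knockout hotspots but no wild type ones. A hotspot counted as an end hotspot if its centre was no more than 1 kb from the first or last base of the annotated gene. Of the 75 members, 29 (38.7%, Clopper-Pearson interval 27.6 to 50.6) carried a knockout-only hotspot at 1 end or the other, against 25.5% of all protein-coding genes. No member had a shared hotspot there. No member had a wild type hotspot at an end either (0 of 75, interval up to 4.80%), against 1.99% of all protein-coding genes, so the wild type count is near the background and says nothing particular about the members. A gene missing from the wild type list has no listed value there, and its reads are not known to be 0.

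The families were compared by these shares. A knockout-only hotspot lay at an end of 17 of 41 Zbtb genes (41.5%, 26.3 to 57.9), 8 of 17 Zc3h genes (47.1%, 23.0 to 72.2) and 4 of 17 Klf genes (23.5%, 6.81 to 49.9). The 3 intervals overlapped, so the families were not separated beyond counting error. The Klf share was close to that of all protein-coding genes. Zc3h had no more such genes than Klf in shorter lists. With the knockout list limited to the length of the wild type list, the counts were 13 Zbtb, 4 Zc3h and 4 Klf genes. At or above the list median strength they were 12 Zbtb, 3 Zc3h and 3 Klf genes. The shares of all protein-coding genes in these settings were 14.6% and 11.1%, in that order. Related genes outside the families gave 15 of 37 for Klhl genes (BTB domain with Kelch repeats, 40.5%), 12 of 39 for other CCCH genes (30.8%), 2 of 9 for Sp genes (22.2%) and 1 of 7 for other BTB zinc finger genes (14.3%). The strongest other CCCH genes were Mbnl3, a splicing regulator gene on X (639), and Rnf113a1 on X (266). The Klhl genes were led by Klhl9 (435), Klhl13 on X (429) and Klhl24 (219). Hic2 had 227, Sp1 100 and Sp4 49.

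**Figure D1:**
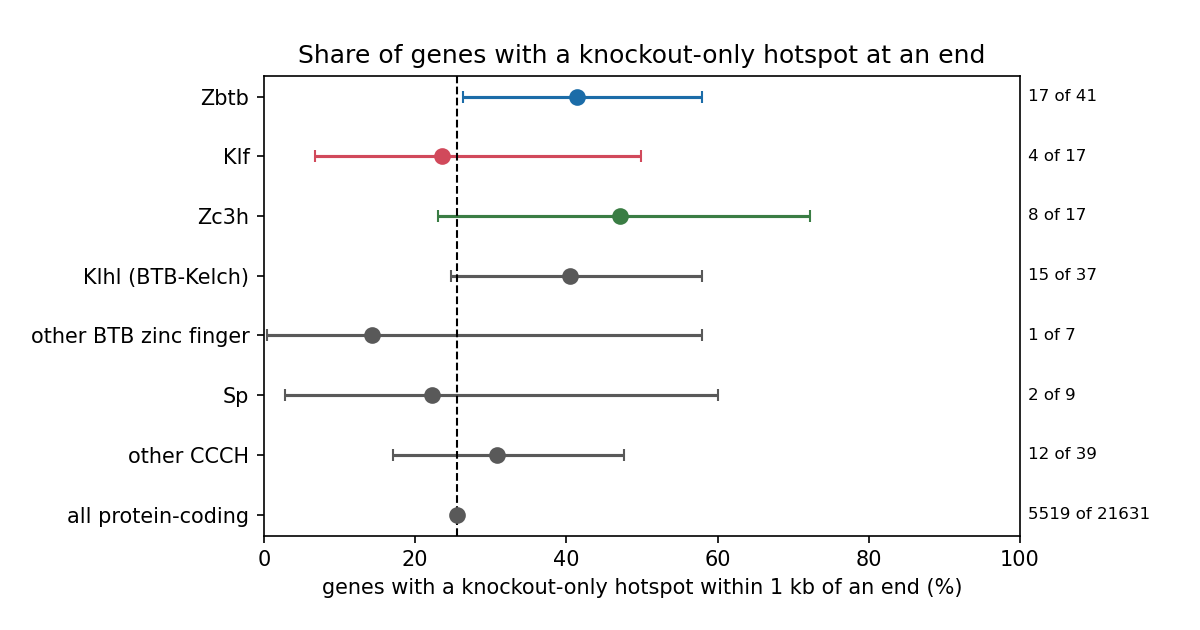
Percent of genes with a knockout-only hotspot within 1 kb of an end, for the 3 families, 4 related lists and all protein-coding genes. Points are shares, bars exact 95% intervals that cover counting error only, and the dashed line is the share of all protein-coding genes (25.5%). Zbtb (41.5%) and Zc3h (47.1%) lie to its right and Klf (23.5%) next to it, with overlapping intervals.

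The 29 members shared 28 different hotspots, because Zbtb1, needed for lymphocyte development, and Zbtb25 start next to each other and have the same one. The strengths ran from 38 to 590 with a median of 123.5, and 17 of 28 reached the median of the whole knockout list. Knockout-only hotspots at ends of all protein-coding genes had a median of 94. By family the medians were 187 for Klf (4 hotspots), 134 for Zbtb (16) and 85.5 for Zc3h (8). On autosomes the 26 member hotspots had a median of 118.5, against 90 for all autosomal genes.

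Among the Zbtb genes the strongest end hotspot was that of Zbtb20, which encodes a repressor known from brain and liver. It lay on chromosome 16 from 42874398 to 42876742, held 657 reads (Poisson interval 608 to 709) and had a strength of 590 at rank 991. Zbtb33 on X, which encodes Kaiso, a reader of methylated CpG, came next with 437. Zbtb10 followed with 317, Zbtb32, a gene of activated lymphocytes, with 253, Zbtb37 with 223 and Zbtb18, a neuronal repressor gene, with 201. These 6 were the strongest end hotspots of the family, without a clear gap to the rest. The Poisson intervals of the reads of Zbtb18 (205 to 266) and of Zbtb5 (168 to 223) overlapped. The other Zbtb strengths were 159 for Zbtb5, 137 for Zbtb44, 131 for Zbtb41, 125 for the hotspot of Zbtb1 and Zbtb25, 112 for Zbtb22 and 91 for Zbtb14. The weakest were Zbtb26 (70), Zbtb17, which encodes the MYC partner MIZ1 (69), Zbtb45 (67) and Zbtb24, which is needed for DNA methylation at pericentromeric repeats (38).

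The 4 Klf genes with an end hotspot were Klf6 (329), Klf11 (259), Klf4, the pluripotency factor gene (115), and Klf5 (102). Klf4, Klf5 and Klf6 belong to the group of activators Klf1, Klf2, Klf4, Klf5, Klf6 and Klf7, where 3 of 6 had one. In the group that binds SIN3A (Klf9, Klf10, Klf11, Klf13, Klf14 and Klf16) Klf11 was the single gene of 6. The group that binds CtBP (Klf3, Klf8 and Klf12) had 0 of 3. These groups are too small to be told apart.

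The 8 Zc3h genes were led by Zc3h12b on X (321), which belongs to the Regnase group of endoribonucleases, and by Zc3h7a (220). Zc3h6 had 122, Zc3h15 90, Zc3h12c, also of the Regnase group, 81, Zc3h7b 67, Zc3h11a, an mRNA export factor gene, 47, and Zc3h8, whose product serves snRNA transcription, 46. Of the Regnase group, 2 of 4 had an end hotspot, while Zc3h12a and Zc3h12d had none at an end. Of the 3 readers of methylated CpG, Zbtb4, Zbtb33 and Zbtb38, Zbtb33 alone had one at an end, and none of the 3 Zbtb7 genes had. The intervals were 6.76 to 93.2% for the Regnase group, 0.84 to 90.6% for the readers and up to 70.8% for Zbtb7. All include the 25.5% of all protein-coding genes, and these groups are too small to be told apart.

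**Figure D2:**
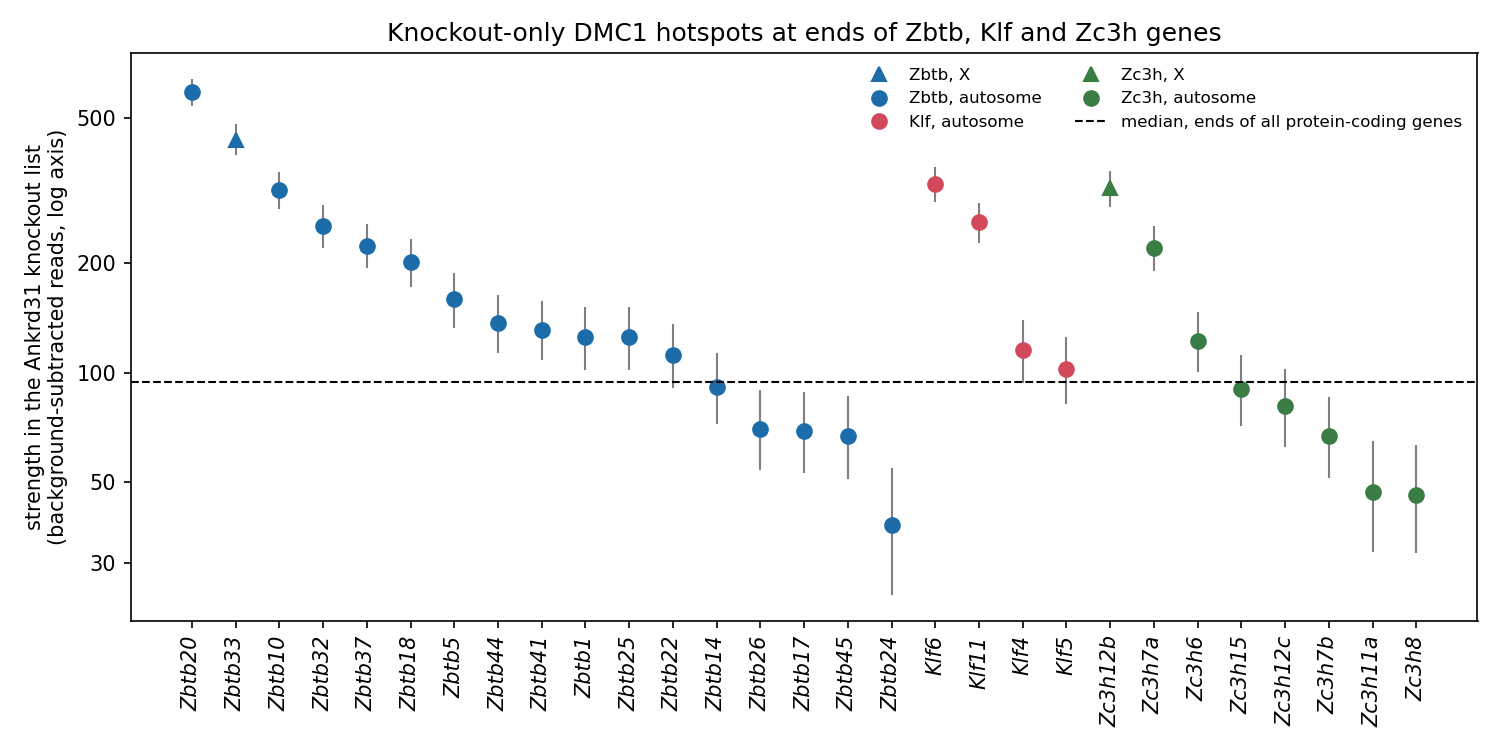
Strength in the Ankrd31 knockout list (background-subtracted reads, log axis) of the hotspot at an end of each of the 29 members that have one, ordered by family and strength. Triangles mark X, bars are 95% Poisson counting intervals of the reads, and the dashed line is the median at ends of all protein-coding genes (94). Zbtb20 (590) and Zbtb33 (437) are highest, and Zbtb24 (38) is lowest. The wild type list has no hotspot at these ends.

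Strand was available for 65 of 75 members from RefSeq promoter windows of GRCm38.p6, which span 250 bases before to 50 after a transcription start. The table held no window for Klf5, Klf10, Klf14, Klf16, Zbtb7c, Zbtb10, Zbtb16, Zbtb40, Zbtb48 and Zc3h3. Of the 27 members with a strand and an end hotspot, 26 (96.3%, 81.0 to 99.9) had it at the 5′ end, against 96.0% over all 4547 such pairs of gene and hotspot. The exception was Zbtb32, whose hotspot lay 936 bp from its 3′ end and 312 bp from an end of the neighbouring histone methyltransferase gene Kmt2b. The median distance of the centre to the nearest start listed for the gene was 185 bp, against 136 bp over all genes. Within 500 bp of such a start lay 24 of 27, near the 88.6% over all such pairs.

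Zbtb20 was far from its listed start. Its hotspot sat 119 bp from the 5′ end of the gene of 758.7 kb, but 371714 bp upstream of the start in the table. The hotspot of Zbtb44, 931 bp inside the gene end, lay 7 bp from a listed start, and that of Zc3h15 lay 4 bp from one. Besides the hotspot of Zbtb1 and Zbtb25, 5 hotspots touched an end of a gene outside the families. These were Kmt2b, Daxx beside Zbtb22 (686 bp), Rabgap1 beside Zbtb26 (111 bp), Gm42337 beside Zbtb17 (890 bp) and Zbed6 inside Zc3h11a (200 bp). For Zbtb26 the centre was nearer to the listed start of Rabgap1 (89 bp) than to its own (202 bp), and for Zc3h11a nearer to that of Zbed6 (200 bp) than to its own (314 bp).

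The position around the start was also read by family. The centre lay downstream of the start in 8 of 8 Zc3h genes (4 to 396 bp), in 7 of 14 Zbtb genes within 1 kb of a listed start (from 559 bp upstream to 192 bp downstream) and in 0 of 3 Klf genes (80 to 203 bp upstream). Over all genes 55.6% of centres lay downstream. The position was noticed in the data and was given no test.

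**Figure D3:**
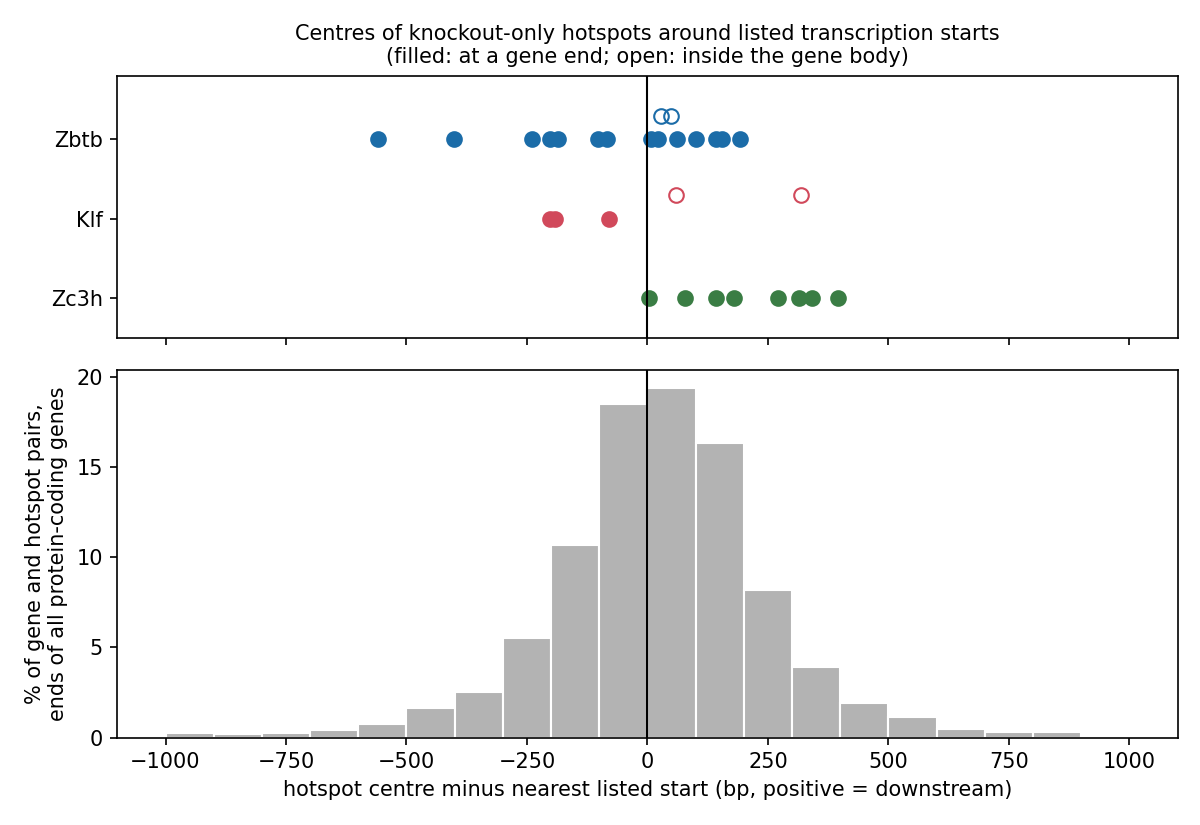
Distance of knockout-only hotspot centres from the nearest listed transcription start of the gene, in bp with downstream positive. The upper panel has 1 point per member hotspot (filled at a gene end, open inside the body), and the lower panel the percent of end hotspots of all protein-coding genes in bins of 100 bp. All 8 Zc3h points lie downstream of the start, the 3 filled Klf points upstream, and the Zbtb points on both sides.

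The promoter windows of these genes are shown because 25 of 27 lay wholly inside the hotspot, so that their letters are part of the DNA recovered. The set holds the strongest hotspots of each family with the window inside them, with Zbtb2, whose hotspot lay just beyond the 1 kb limit, and Klf1, the erythroid factor gene, which was picked for its low CpG content among the members with no hotspot in either list. Capitals mark GC boxes (GGGCGG) and CACCC boxes (CACCC) on either strand, which may touch or overlap. The windows are RefSeq sequence of GRCm38.p6, read 5′ to 3′ on the strand of the gene.
Zbtb33, chrX:38189543-38189842, plus strand: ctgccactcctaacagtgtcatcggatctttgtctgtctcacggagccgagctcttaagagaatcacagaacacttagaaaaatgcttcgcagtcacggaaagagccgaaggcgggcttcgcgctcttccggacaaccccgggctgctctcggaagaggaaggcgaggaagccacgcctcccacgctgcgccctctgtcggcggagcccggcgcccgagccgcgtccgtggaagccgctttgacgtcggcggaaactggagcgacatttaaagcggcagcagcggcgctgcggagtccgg
Zbtb37, chr1:161034800-161035099, minus strand: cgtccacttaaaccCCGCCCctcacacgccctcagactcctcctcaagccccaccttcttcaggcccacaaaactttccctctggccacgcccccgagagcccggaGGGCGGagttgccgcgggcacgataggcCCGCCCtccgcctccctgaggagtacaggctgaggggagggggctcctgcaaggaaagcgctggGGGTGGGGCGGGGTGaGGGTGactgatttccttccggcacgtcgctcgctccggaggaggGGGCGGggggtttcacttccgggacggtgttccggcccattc
Klf6, chr13:5861239-5861538, plus strand: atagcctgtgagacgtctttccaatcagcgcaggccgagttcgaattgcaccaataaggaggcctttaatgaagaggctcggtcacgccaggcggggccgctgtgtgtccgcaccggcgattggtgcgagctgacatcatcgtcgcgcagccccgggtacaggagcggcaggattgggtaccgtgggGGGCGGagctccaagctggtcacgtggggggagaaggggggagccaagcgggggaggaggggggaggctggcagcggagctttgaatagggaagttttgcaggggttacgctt
Zc3h12b, chrX:95711428-95711727, plus strand: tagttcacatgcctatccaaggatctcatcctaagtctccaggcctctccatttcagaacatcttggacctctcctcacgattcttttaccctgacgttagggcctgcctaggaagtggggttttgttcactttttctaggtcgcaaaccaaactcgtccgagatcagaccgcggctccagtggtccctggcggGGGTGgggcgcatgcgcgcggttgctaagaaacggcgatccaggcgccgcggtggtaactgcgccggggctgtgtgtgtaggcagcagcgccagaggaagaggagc
Zc3h7a, chr16:11176292-11176591, minus strand: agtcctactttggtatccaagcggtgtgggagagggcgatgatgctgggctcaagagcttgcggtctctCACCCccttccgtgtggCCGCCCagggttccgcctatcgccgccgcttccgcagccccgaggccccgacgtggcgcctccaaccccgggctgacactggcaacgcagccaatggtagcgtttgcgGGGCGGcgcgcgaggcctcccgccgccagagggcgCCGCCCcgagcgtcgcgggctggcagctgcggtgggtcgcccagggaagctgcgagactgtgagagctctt
Zbtb2, chr10:4388059-4388358, minus strand: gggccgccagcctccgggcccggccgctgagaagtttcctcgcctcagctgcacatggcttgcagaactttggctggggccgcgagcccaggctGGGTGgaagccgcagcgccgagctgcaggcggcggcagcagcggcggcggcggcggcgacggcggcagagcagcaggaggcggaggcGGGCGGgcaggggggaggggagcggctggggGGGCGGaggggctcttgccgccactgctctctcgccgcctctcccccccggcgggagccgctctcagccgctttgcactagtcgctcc
Klf1, chr8:84901732-84902031, plus strand: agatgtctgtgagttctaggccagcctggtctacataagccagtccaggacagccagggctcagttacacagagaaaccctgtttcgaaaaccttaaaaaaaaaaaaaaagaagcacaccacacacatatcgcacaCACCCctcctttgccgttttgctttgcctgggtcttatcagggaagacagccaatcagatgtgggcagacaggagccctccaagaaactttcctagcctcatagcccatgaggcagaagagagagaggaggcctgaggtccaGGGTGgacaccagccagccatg

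The printed windows with a hotspot were rich in CpG, and neither box was present in all of them. The CpG ratio, observed over expected CpG from the C and G content, was 1.15 for Zbtb33, 0.66 for Zbtb37, 0.84 for Klf6, 0.79 for Zc3h12b, 0.89 for Zc3h7a and 0.76 for Zbtb2. The ratio of 0.15 for Klf1 follows from how it was picked and does not stand for members without a hotspot. Zbtb33 had 34 CpG in 300 bases with 0 GC boxes and 0 CACCC boxes. Zbtb37 had 5 GC boxes and 3 CACCC boxes. Klf1 had 3 CpG, 0 GC boxes and 2 CACCC boxes.

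With 1 window per gene, the one nearest the 5′ end, the median CpG ratio was 0.89 in the 27 members with an end hotspot and 0.83 in the 38 without. Over all protein-coding genes these medians were 0.80 and 0.41. The medians of members with and without a hotspot were thus close, whereas those of genes at large lay apart. A ratio of at least 0.6 was found in 25 of 27 members with an end hotspot (92.6%) and 28 of 38 without (73.7%). Over all protein-coding genes it was found in 80.6% and 37.8%, lower without a hotspot in both sets. Among members with an end hotspot, the 2 below 0.6 were Zbtb20 and Zbtb32, whose windows lay outside the hotspot.

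The share with a knockout-only hotspot at an end was also read by CpG ratio. At a ratio of at least 0.6 it was 25 of 53 members (47.2%, 33.3 to 61.4), near the 42.9% of 8460 protein-coding genes. Below 0.6 it was 2 of 12 members (16.7%, 2.09 to 48.4), against 9.93% of 8814 protein-coding genes, too few members to place. Without a window in the table it was 2 of 10 members, against 23.4% of 4357 protein-coding genes. CpG-rich starts made up 81.5% of members and 49.0% of all protein-coding genes with a window. By family, the CpG-rich genes with an end hotspot were 8 of 14 Zc3h, 14 of 30 Zbtb and 3 of 9 Klf genes.

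**Figure D4:**
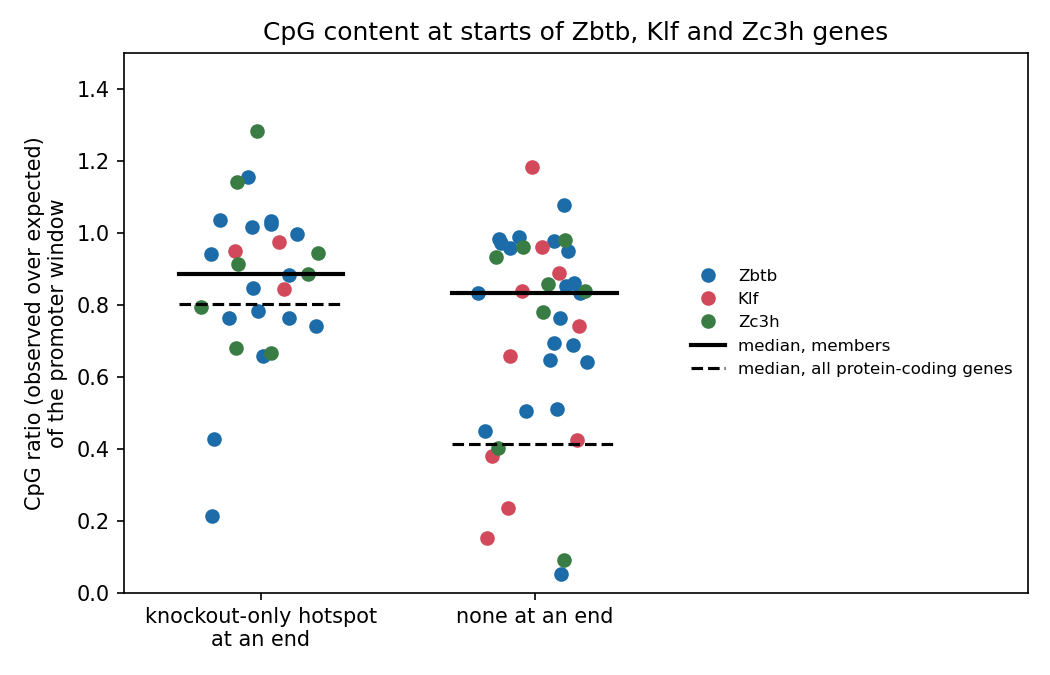
CpG ratio (observed over expected) of the promoter window of each member with a window, split by whether a knockout-only hotspot lies at an end of the gene. Points are genes, solid lines the medians of members (0.89 with a hotspot and 0.83 without) and dashed lines the medians of all protein-coding genes (0.80 and 0.41).

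Motifs were counted in the same windows on both strands. A GC box was present in 19 of 27 members with an end hotspot (70.4%), in 29 of 38 without (76.3%) and in 46.9% of all protein-coding genes. Over all protein-coding genes it was present in 73.1% with a hotspot and 37.7% without. A CACCC box was present in 13 of 27 (48.1%) and in 32 of 38 (84.2%), against 58.8% of all genes. Over all genes that box was slightly more frequent with a hotspot (63.5%) than without (57.2%), the other way round from the pooled members. The lower share with a hotspot was seen in the Zbtb and Klf genes. For Klf it rests on the windows of Klf4, Klf6 and Klf11 alone, with 0 CACCC boxes each. In the Zc3h genes the share was the same with and without a hotspot. This contrast was not tested. CCAAT was present in 10 of 27 and 13 of 38 members, against 39.6% of all genes, and TATAAA in 1 of 27 and 3 of 38, against 13.4%. The E box CACGTG was present in 6 of 27 and 4 of 38, against 8.01%. Over all genes with and without a hotspot, CCAAT was in 41.0% and 39.1%, and TATAAA in 5.75% and 16.1%. The E box was in 12.6% and 6.39% of them.

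Of the 46 members with no hotspot at an end, 30 had none in the gene body either. These were 16 Zbtb, 8 Klf and 6 Zc3h genes. They included Zbtb7a and Zbtb7b, which direct blood lineage choice, the telomere factor gene Zbtb48, the endothelial gene Klf2, Klf17, the mRNA decay gene Zc3h12a and the transcription restriction factor gene Zc3h4. The others were Klf1, Klf3, Klf13, Klf14, Klf15, Klf16, Zbtb3, Zbtb4, Zbtb6, Zbtb8a, Zbtb8b, Zbtb8os, Zbtb9, Zbtb12, Zbtb21, Zbtb34, Zbtb39, Zbtb42, Zbtb43, Zc3h3, Zc3h10, Zc3h18 and Zc3hc1. Many of them have CpG-rich starts, such as Klf15 with a ratio of 1.18 and Zbtb43 with 1.08. The matching share of all protein-coding genes was not computed. The count of 30 is therefore a listing, and whether it is high or low for genes at large is not known.

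Some strong hotspots fell just outside the 1 kb limit. Just inside it were Zbtb32 (936 bp) and Zbtb44 (931 bp). Just outside it, among hotspots inside genes, were those of Zbtb2 and of Klf10, a TGF-beta response gene. That of Zbtb2 had a strength of 638 at 1075 bp from an end, and that of Klf10 had 493 at 1511 bp. For Klf10 the table lists no start and no strand. Both exceed every end hotspot of their family, so which gene leads a family depends on the limit. The Zbtb2 hotspot, 3034 bp wide, still covered the whole promoter window of the gene.

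Inside gene bodies, more than 1 kb from both ends, the members had 34 knockout and 19 wild type hotspots. They lay in 17 members in the knockout (22.7%, against 21.3% of all protein-coding genes) and 14 in the wild type (18.7%, against 18.9%), so both shares are near the background. Per Mb of body there were 9.15 knockout and 5.11 wild type hotspots in members, against 7.92 and 6.70 in all protein-coding genes. By family the densities were 8.87 and 5.42 for Zbtb, 8.05 and 4.60 for Klf, and 11.0 and 4.90 for Zc3h. Of the 34 knockout hotspots, 19 were knockout-only (55.9%, 37.9 to 72.8) and 15 shared, whereas 2446 of 7848 were knockout-only over all protein-coding genes (31.2%). Per Mb of body there were 5.11 knockout-only hotspots in members, against 2.47 in all protein-coding genes, and 4.04 shared ones, against 5.45. Several of the 19 lie in the same gene and are not independent.

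Several knockout-only hotspots inside bodies sat on internal transcription starts. Of the 13 with a listed start of the gene, 4 (30.8%, 9.09 to 61.4) were centred within 500 bp of one, close to the 29.3% over all protein-coding genes. They belonged to Klf8 on X, a repressor gene, with strengths of 448 (60 bp from a start) and 247 (318 bp), to Zbtb11 (159, 28 bp) and to Zbtb38 (73, 49 bp). Of the 13 shared hotspots with a listed start in the gene, 0 were within 500 bp, and the nearest was 8922 bp away, against 0.587% over all genes. With listed starts in place of gene ends, a knockout-only hotspot lay within 1 kb of one in 28 of 65 members (43.1%, 30.8 to 56.0), against 27.8% of all protein-coding genes, and a wild type hotspot in 1 of 65, against 0.903%.

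That 1 wild type hotspot was in Zbtb18. It lay on chromosome 1 from 177444906 to 177446550, with a strength of 110, was wild-type-only, and was centred 93 bp from a listed internal start. Of 980 wild-type-only hotspots inside all protein-coding genes with a listed start it was the single one within 500 bp. In the knockout list the gene had its hotspot at the 5′ end (201), 83 bp upstream of another start. Zbtb18 was thus in both lists, at different starts.

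The other wild-type-only hotspots in members were weak, with strengths of 78 in Zbtb46, a dendritic cell gene, 71 in Zbtb16 and 60 in Klf12. The remaining knockout-only body hotspots were also mostly weak. They had strengths of 148 in Zc3h14, a poly(A)-binding protein gene, 83 and 36 in Zc3h12d, 82 and 68 in Zc3h12b, 81 and 54 in Zbtb16, 75 in Klf9, 74 and 58 in Zbtb20, 58 and 52 in Zbtb7c and 42 in Zbtb40. Zbtb16, whose product maintains spermatogonial stem cells, therefore had 3 knockout and 2 wild type hotspots in its body and none at an end.

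The 15 shared hotspots, all inside bodies, lay in 11 members. Strengths of the lists were compared as relative strength, each set over the median of the shared autosomal hotspots in its list (151 in the knockout and 182 in the wild type). The strongest was in Zc3h12b on X, with 1323 in the knockout and 2299 in the wild type (log2 ratio -0.53, counting interval -0.63 to -0.43). Zbtb7c on chromosome 18 had 582 and 1201 (-0.78, -0.92 to -0.63). Klf8 had 280 and 627 (-0.89, -1.10 to -0.69). The 7 strongest shared hotspots in the wild type all had a lower relative strength in the knockout.

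Over 2-fold lower were 3 of 15, against 25.2% of shared hotspots inside all protein-coding genes and 15.8% of all shared hotspots. These were the hotspot of Zc3h13, a gene of the m6A RNA methylation complex (161 in the knockout and 631 in the wild type, log2 ratio -1.70, -1.95 to -1.46), that of Zc3h6 (161 and 492, -1.34, -1.60 to -1.09) and that of Zbtb20 with 265 and 660 (-1.05, -1.25 to -0.84). Over 2-fold higher was 1 of 15, in Zc3h12d (76 and 42, log2 ratio 1.13, 0.61 to 1.65), against 7.35% of shared hotspots inside all protein-coding genes and 13.2% of all shared hotspots. Both counts are near the background inside genes. On strength as deposited 5 were over 2-fold lower, with Zbtb7c (-1.05) and Klf8 (-1.16) added, and 0 were over 2-fold higher. The call of Zc3h12d as shared and over 2-fold higher is not firm. Its ratio as deposited was 0.86, and its knockout hotspot of 2612 bp overlapped the wild type one by 1194 bp (45.7%), so that with an overlap of 50% of both it was no longer shared. The median of the Zc3h hotspots, -0.94, was then -1.34.

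The weaker shared hotspots lay around 0 or above it. Zbtb16 had 90 in the knockout and 66 in the wild type (0.72, 0.26 to 1.18), Zbtb11 126 and 110 (0.47, 0.11 to 0.82), and the third hotspot of Zbtb20 217 and 190 (0.46, 0.19 to 0.74). Intervals of Zbtb49 (191 and 252), of the last hotspot of Zbtb20 (45 and 53) and of both hotspots of Klf7 (82 and 95, 80 and 80) included 0. The 4 hotspots of Zbtb20 thus ranged from -1.05 to 0.46, so that hotspots of 1 gene differed in direction. The median over the 15 was -0.13, with 8 lower and 7 higher (as deposited -0.40, with 10 lower, 4 higher and 1 at 0), against -0.32 for shared hotspots inside all protein-coding genes. Ordering by wild type strength places low ratios among the strong ones in any such comparison.

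**Figure D5:**
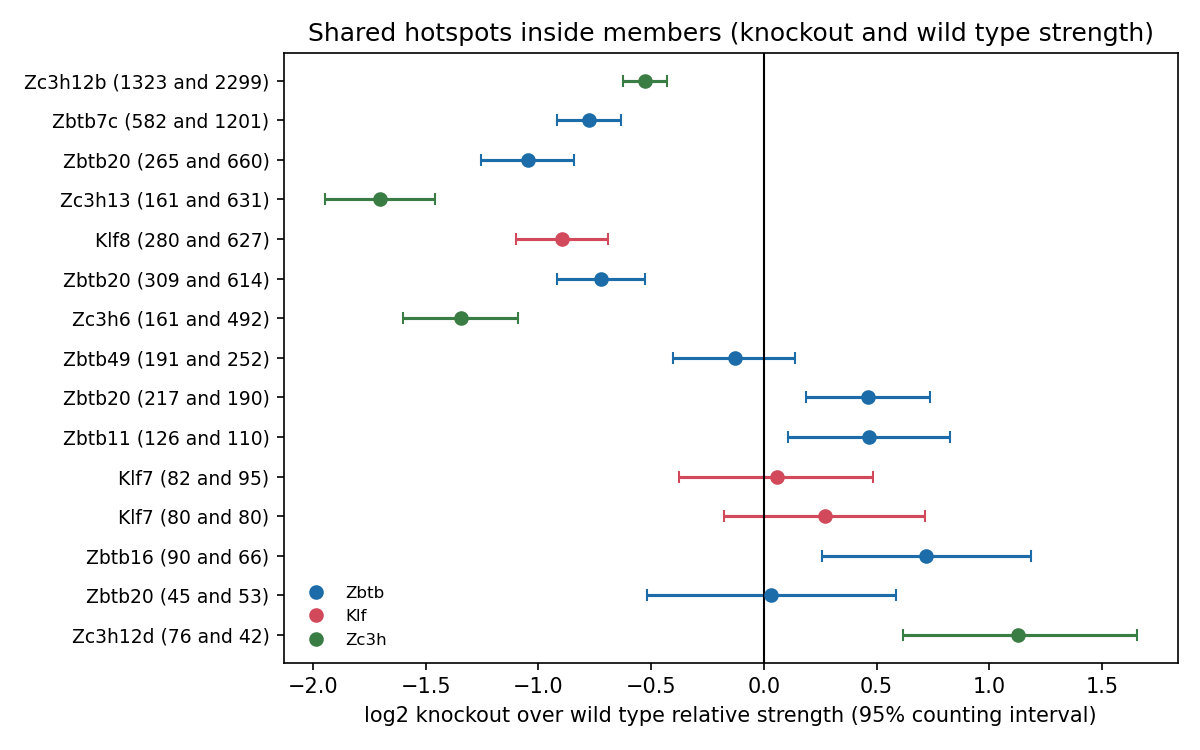
Log2 ratio of knockout over wild type relative strength for the 15 shared hotspots inside members, ordered from the strongest in the wild type (top) to the weakest, with 95% counting intervals. Labels give knockout and wild type strength, and colours the family. The 7 strongest lie between -1.70 and -0.53, and Zc3h12d (1.13) is highest.

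The 3 members on X, Zbtb33, Zc3h12b and Klf8, all had a knockout-only hotspot at a start, the third at internal starts. X-linked genes had one at an end in 40.3% of cases and autosomal genes in 24.8%. The end hotspots of Zbtb33 (437) and Zc3h12b (321) exceeded the median of such X hotspots (219). Among the 72 autosomal members 27 had an end hotspot (37.5%, 26.4 to 49.7).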

How the data were processed

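The authors deposited 1 DMC1-SSDS hotspot list for each genotype, and the sources used here do not say whether the 2 samples of a genotype were pooled. Per the submitters' processing notes, the build was mm10 and the tools included MACS2, BWA, Bowtie2 and CASAVA, with no version or role stated. Per the file headers, each hotspot has a deposited read count, a deposited background signal, a deposited strength signal (count minus background in every row), a deposited percent of summed strength and a rank. Background made up 6.03% of reads in knockout hotspots and 4.39% in wild type hotspots. No scaling between the lists was visible.

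Genes and promoter windows came from RefSeq tables of GRCm38.p6, the coordinates of mm10. Placement and pairing of hotspots were computed in Python 3.11.15 with pandas 2.3.3 and numpy 2.4.6, tested on simulated data, and intervals with scipy 1.17.1. Counting intervals of a log2 ratio came from the reads by an exact binomial interval, with background taken as free of error. SSDS reads are not independent molecules.

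Members and lists were chosen with earlier results of these data known. Comparison lists, subgroups and motifs were named without reference to their values here, whereas the split by CpG ratio, the use of listed starts and the printed promoters (in place of that of Zbtb20, whose window lies outside its hotspot) were chosen after values were seen. Klf15, first listed in the SIN3A group, was taken out of it after values were seen. The rule for named genes covers every member with an end hotspot, every member on X, the strongest body hotspots of each family and the subgroups. One further motif, the CRE, was present in 0 of 27 members with an end hotspot and 2 of 38 without, against 2.36% of all protein-coding genes. A planned count of zinc fingers in the proteins was not run. Alternatives were the window, the overlap for pairing, a shorter knockout list, a stricter threshold, autosomes alone and the scale of strength.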

Additional observations from a re-analysis of the deposited data

How the results depend on the processing

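No paired analysis was possible because each genotype has 1 list with no replicate values, so no sample could be left out either. Among alternatives, 71 values kept their direction and stayed within 1.5 times or the spread over hotspots, 11 counts moved further and 2 medians changed sign. The 71 include wild type end counts that had to stay 0 with a smaller window, a stricter threshold or autosomes alone. With hotspots at or above the median strength of their list, 18 members (in place of 29) carried a knockout-only hotspot at an end, against 11.1% of all protein-coding genes, and the Zc3h genes 3 in place of 8. Knockout body hotspots then lay in 11 members (5 Zbtb, 2 Klf) and wild type ones in 7 (3 Zbtb, 1 Klf). The shares of all protein-coding genes were not computed for these body counts. With the knockout list limited to the length of the wild type list, 4 Zc3h genes and 21 members in all had one at an end, against 14.6% of all protein-coding genes. With a window of 2 kb, 1 member, Zc3h8, had a wild type hotspot at an end (1389 bp away). A knockout-only one then lay at an end of 32 members (42.7%), against 27.9% of all protein-coding genes. With 500 bp, 0 members had a wild type hotspot at an end, which follows from the 0 at 1 kb. A knockout-only one then lay at an end of 27 members (36.0%), against 22.8% of all protein-coding genes. The median log2 ratio of the 3 shared Klf hotspots, 0.06, became -0.21 on strength as deposited and -0.13 on shares of summed strength. This follows from the scaling, since the median lies near 0. The depth behind weak hotspots limits all lists: an end with fewer reads than the weakest listed hotspot is not seen.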

Other observations

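Wild type hotspots lay close outside some members without reaching the 1 kb limit. Within 5 kb beyond an end there were 5, near Zc3h8, Zbtb8os, Klf3, Klf5 and Zc3h4, and all were shared. Most wild type hotspots were shared (11487 of 13480), so this is nothing particular to the members. The matching count for all protein-coding genes was not computed. The one 4231 bp beyond Klf5, an epithelial factor gene, was stronger than most, with a strength of 623 in the knockout and 1697 in the wild type (rank 257). That near Klf3 had 749 and 395, that near Zbtb8os 154 and 383, that near Zc3h4 48 and 185 and that near Zc3h8 76 and 81. These values are as deposited and were not tested.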
